A study of Mus musculus with 6 samples.

Results

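The genes described here encode the Polycomb and Trithorax group proteins, the enzymes and subunits that write, read and erase the repressive and activating marks of developmental genes on histone H3. A fixed list of 38 member symbols was looked up in the symbol column of the deposited tables, and all 38 were found, each once, among 17006 genes. Of these, 9 belong to Polycomb repressive complex 2 (PRC2), 15 to Polycomb repressive complex 1 (PRC1), 12 to the KMT2 or COMPASS complexes and their relative ASH1L, and 2 are H3K27 demethylases. RNA came from primary neural stem cells of the subventricular zone, the germinal layer beside the lateral ventricles of the mouse brain, and was sequenced after removal of ribosomal RNA. The animals were C57BL/6 mice with no transgene or treatment named, either young (2 months; 3 libraries) or aged (15 to 18 months; 3 libraries). Tissue pieces of 5 mice were pooled before dissociation and the cells were then kept in proliferation medium, so every library describes cultured, dividing cells from a pool and not the niche itself. The labels do not say whether the 3 libraries of an age came from separate pools, and p-values therefore measure the spread between these libraries, which may be technical.

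PRC2 places methyl groups on H3K27 through EZH1 or EZH2, and needs EED and SUZ12 to do so. PRC1 places ubiquitin on histone H2A through RING1 or RNF2, each paired with 1 of several PCGF proteins. The canonical forms of PRC1 carry a CBX protein that binds methylated H3K27 and a PHC protein that polymerises, whereas the variant forms carry RYBP or its paralog in their place. Trithorax group enzymes of the KMT2 and SETD1 families methylate H3K4 and counteract Polycomb silencing, and KDM6A and KDM6B remove the methyl groups that PRC2 adds. In neural stem cells BMI1, a PCGF protein, is known for keeping the Cdkn2a locus silent and so permitting self-renewal, and EZH2 and KMT2A are known for keeping progenitors dividing and for permitting neurogenesis.

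In these cultures the RNA levels of these genes were close to equal at both ages. Protein and histone marks were not measured in these libraries. All 38 genes had a mean of at least 1 FPKM (fragments per kilobase of transcript, scaled to library size, a level per length) and entered the test, and 0 of 38 changed at an adjusted p under 0.05 by limma with Benjamini-Hochberg adjustment over 11912 genes. Of all tested genes 0.722% were called in that fit. At an unadjusted p under 0.05, 4 of the 38 (10.5%) were past the threshold, against 11.9% of all tested genes. Among them Phc1 and Men1 were higher in aged libraries (6.3% of all genes were higher at that p) and Rybp and Pcgf3 were lower (5.55% of all genes were lower). The young and aged values did not overlap for 4 members as well, namely Rybp, Phc1, Men1 and Rbbp4, against 17.6% of all tested genes. Both shares of the members lay near or under the background.

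The changes were also small in size. The median log2 change of the 38 genes, on the scale of FPKM + 1 and aged minus young, was 0.011, with 20 genes higher and 18 lower, and the median over all tested genes was 0.0027. The median absolute log2 change was 0.032 for the members and 0.070 for all tested genes. The complexes differed in this: it was 0.025 for PRC2 and 0.028 for the KMT2 group but 0.076 for PRC1, where 46.7% of the genes had an estimate over 0.1 in size, against 35.9% of all tested genes. Because a p that misses the threshold does not show equality, the 95% interval of each change is given with it. These intervals are limma's, gene by gene, and their half-widths ran from 0.080 (Rbbp4) to 0.45 (Cbx7) on the log2 scale. Like the p-values, they rest on the spread between these libraries, which may be technical and not cover the spread between animals. The interval lay within 1.5-fold in either direction for 38 of 38 members (92.7% of all tested genes) and within 1.2-fold for 27 of 38 (49.8% of all tested genes). By complex, the narrower bound held for 7 of 9 PRC2 genes, 12 of 12 of the KMT2 group, 2 of 2 demethylases and only 6 of 15 PRC1 genes (40%). The median half-width was 0.153 for PRC2, 0.163 for the KMT2 group, 0.193 for PRC1 and 0.181 for all tested genes. PRC1 includes Pcgf1, Pcgf2, Pcgf5 and Cbx7, at about 23.9 to 50.6 estimated reads per library, and PRC2 includes Ezh1 at about 38.1. With a pseudocount of 0.1, which shrinks the changes of low genes less, 37 of 38 intervals still lay within 1.5-fold. The exception was Cbx7, whose interval then ran from -0.61 to 0.73. The narrower 1.2-fold bound depended on the pseudocount too. At 0.1 it no longer held for Ash2l (-0.268 to 0.048), Mtf2 (-0.23 to 0.2632, just past it) and Pcgf1 (-0.289 to 0.229).

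**Figure D1:**
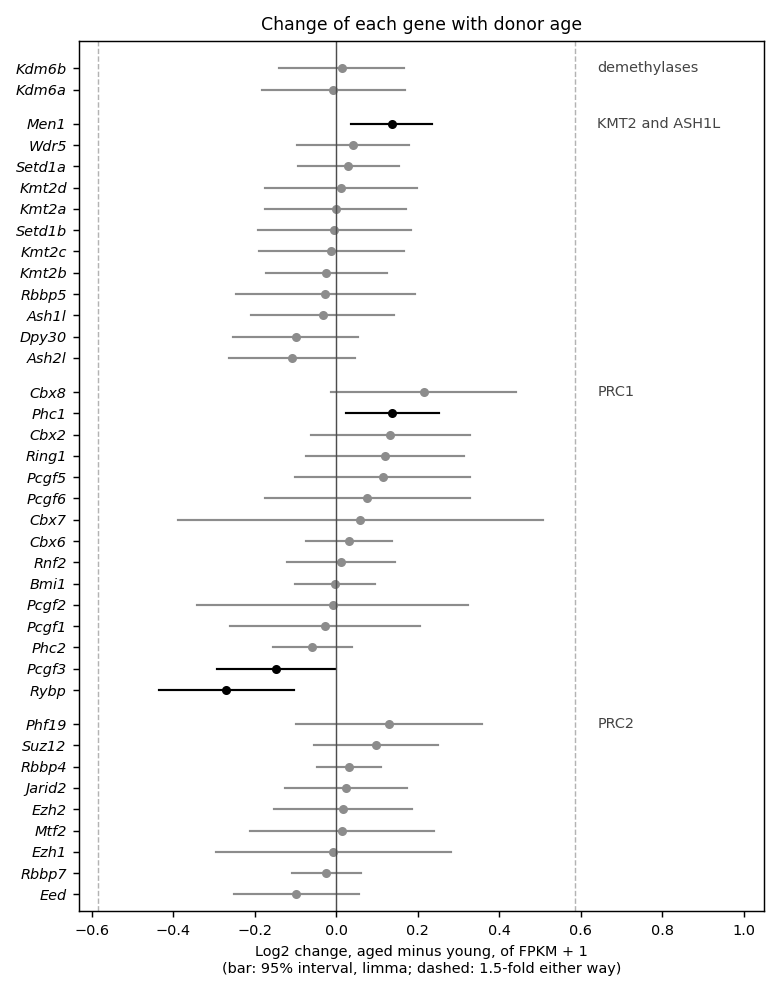
Log2 change (aged minus young, FPKM + 1; horizontal axis) of each of the 38 genes by complex, with the limma estimate as a point and its 95% interval as a bar; black marks an unadjusted p under 0.05 and dashed lines 1.5-fold. Every bar lies between the dashed lines, and the 4 black bars belong to Men1, Phc1, Pcgf3 and Rybp.

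The most abundant members were adaptor subunits that also serve other complexes or assemble PRC1, and the least abundant were single paralogs. Phc2 had the highest mean over the 6 libraries (104.9 FPKM), followed by the histone-binding subunits Rbbp7 (99.5 FPKM) and Rbbp4 (72.5 FPKM). At the low end stood Pcgf2 (2.02 FPKM), Cbx7 (1.85 FPKM) and Ezh1 (1.68 FPKM). Neighbours in this order often overlapped in their library values, as Phc2 (98.05 to 109.81 FPKM) and Rbbp7 (95.71 to 102.48 FPKM) did, and as the last 3 genes did among themselves.

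**Figure D2:**
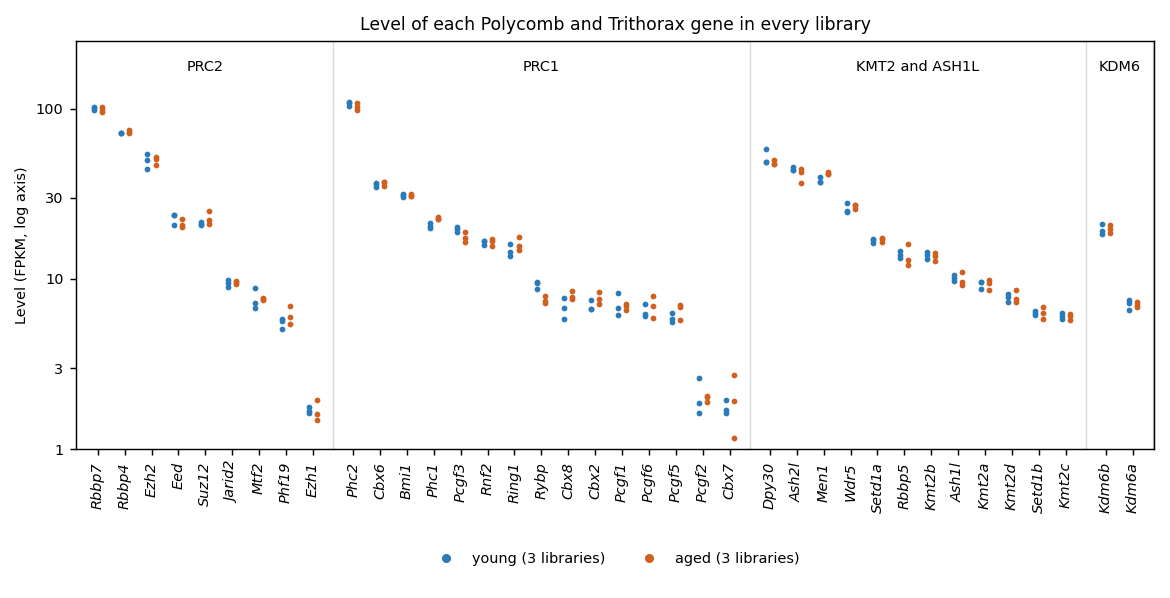
FPKM (logarithmic vertical axis) of each gene in each of the 6 libraries, ordered by mean within PRC2, PRC1, the KMT2 group and the KDM6 demethylases; blue points are young and orange points aged libraries. Levels run from 1.16 FPKM (Cbx7, in an aged library) to 109.81 FPKM (Phc2, in a young library), while the 2 colours lie close together for each gene.

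Among the PRC2 genes the RNA for the catalytic subunit came almost entirely from Ezh2. Neither Ezh2 nor its paralog Ezh1 differed between the ages beyond the spread of its libraries. Ezh2 was at 44.14, 49.81 and 53.95 FPKM in young and at 50.53, 52.2 and 46.56 FPKM in aged libraries. Ezh1, the paralog typical of cells that divide little, was at 1.67, 1.76 and 1.63 FPKM in young and at 1.49, 1.94 and 1.61 FPKM in aged libraries. The groups overlapped fully for both genes. For Ezh2 limma gave a log2 change of 0.02 ± 0.075 (SE; adjusted p = 0.962), with an interval from -0.15 to 0.19. For Ezh1 it was -0.01 ± 0.13 (SE; adjusted p = 0.990), from -0.30 to 0.28. Ezh1 rests on only about 38.1 estimated reads per library, and Ezh2 on about 744.

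The promoters of these paralogs are shown because they fill the same seat of PRC2 at very different levels, and those of Suz12 and Phf19 because they hold an E2F word, the motif of the factors that drive genes of the dividing cell. The stretches come from the RefSeq promoter table of GRCm38.p6 (the mm10 assembly) and read 5′ to 3′ toward the start site. Those of Ezh2 and Ezh1 end at the last base before the start, and those of Suz12 and Phf19 begin 250 bases before it. The start is the one the promoter table uses. For Ezh2 and Phf19 the RefSeq gene span reaches further upstream, to 47595270 and 34914353, so their stretches lie inside that span. Capitals mark a match, on either strand, to CCAAT (the NFY motif), to 1 of the E2F words TTTCGCGC, TTTGGCGC, TTTCCCGC and TTTGCCGC, or to the NRF1 word TGCGCATGC.
Ezh2 (chr6:47595031-47595155, minus strand): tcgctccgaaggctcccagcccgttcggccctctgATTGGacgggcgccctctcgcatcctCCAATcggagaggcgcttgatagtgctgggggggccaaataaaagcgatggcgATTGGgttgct
Ezh1 (chr11:101226464-101226588, minus strand): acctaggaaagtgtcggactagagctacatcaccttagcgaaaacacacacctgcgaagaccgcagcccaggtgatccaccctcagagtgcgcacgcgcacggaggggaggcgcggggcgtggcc
Suz12 (chr11:79992856-79992980, plus strand): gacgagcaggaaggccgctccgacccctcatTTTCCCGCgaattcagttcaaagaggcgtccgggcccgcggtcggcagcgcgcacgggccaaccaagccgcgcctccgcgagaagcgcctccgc
Phf19 (chr2:34914102-34914226, minus strand): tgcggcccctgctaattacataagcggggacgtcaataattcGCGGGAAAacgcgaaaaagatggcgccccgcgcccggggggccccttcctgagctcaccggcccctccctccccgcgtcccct
The stretch of Ezh2 holds 3 CCAAT matches and that of Ezh1 none of the marked words. Each of the other stretches holds 1 E2F word. A match is a run of letters and not a measured binding site.

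A window of 300 bases, from 250 before to 50 after a start, was held for 30 of the 38 members. These windows were rich in CpG, with a median of 30 CpG per window (from 9 to 56; the highest window of each gene), against 23 for the 9489 tested genes with a window and 8 for all 27025 genes of the table. An E2F word stood in 3 of the 30 (10%; 5.06% of tested genes and 2.6% of all genes), the third being that of Ezh2, just after its start. The SP1 motif GGGCGG stood in 23 of 30 (76.7%; 71.2% of tested genes), CCAAT in 13 (43.3%; 43.6%), the YY1 word GCCATNTT in 5 (16.7%; 10.4%), and the ETS word CCGGAAG in 1 (3.33%; 20.9%). TGCGCATGC (3.33%; 3.66%) and TATAAA (3.33%; 8.06%) each stood in 1 window. These words were searched on both strands and were chosen after the expression values were known.

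The scaffold subunits of PRC2 had estimates of opposite sign, neither of which passed the test. Eed, which binds the methylated tail, was at 23.74, 23.61 and 20.84 FPKM in young and at 20.81, 22.42 and 20.24 FPKM in aged libraries, a log2 change of -0.10 ± 0.067 (SE; limma adjusted p = 0.647). Suz12, which holds the complex together, was at 20.84, 21.62 and 20.91 FPKM in young and at 21.08, 24.97 and 22.13 FPKM in aged libraries, a change of 0.10 ± 0.067 (SE; limma adjusted p = 0.647). Both genes overlapped between the ages, and the high mean of Suz12 in aged libraries came mainly from aged 2. Their means over the 6 libraries were alike, at 21.9 FPKM each. Rbbp4, a histone chaperone shared with other complexes, was at 71.8, 71.47 and 71.68 FPKM in young and at 71.86, 72.85 and 75.05 FPKM in aged libraries. Its highest young and lowest aged values almost touch, and the log2 change was 0.03 ± 0.035 (SE; limma adjusted p = 0.800). Its near twin Rbbp7 had means of 100.3 and 98.7 FPKM.

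Of the accessory subunits, Jarid2 and Mtf2, which help to bring PRC2 to CpG-rich DNA, had means of 9.44 and 9.60 FPKM and of 7.61 and 7.65 FPKM in young and aged libraries. Phf19, the Polycomb-like protein that reads H3K36 methylation, had means of 5.51 ± 0.384 and 6.14 ± 0.762 FPKM (SD, n = 3 each), and limma gave 0.13 ± 0.10 (SE) as its log2 change (adjusted p = 0.694), which was 0.048 without aged 1, 0.081 without young 1 and 0.20 without aged 2. All 3 overlapped between the ages, and 0 of the 9 PRC2 genes were past an unadjusted p of 0.05, against 11.9% of all tested genes.

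PRC1 held 3 of the 4 members past the unadjusted threshold (3 of 15 genes, 20%, against 11.9% of all tested genes) and, with Rybp, the lowest estimate among the 38 when all libraries were used. Rybp and its paralog Yaf2 encode the subunits that mark variant PRC1 and take the place of CBX proteins. Rybp was at 9.42, 8.74 and 9.64 FPKM in young and at 7.22, 7.44 and 7.89 FPKM in aged libraries. Every aged library lay under every young one. The aged mean was 18.9% under the young mean, with a log2 change of -0.27 ± 0.072 (SE), an interval from -0.43 to -0.10 and an unadjusted p of 0.0052, and it did not pass adjustment (limma adjusted p = 0.181). In 16 alternative fits the change of Rybp ran from -0.31 to -0.19 and its adjusted p from 0.163 to 0.402. Yaf2 was the more abundant of the paralogs, with a mean over the 6 libraries of 31.4 FPKM against 8.39 FPKM for Rybp. The Yaf2 values overlapped between the ages, with a log2 change of 0.04 ± 0.048 (SE; limma adjusted p = 0.836). Rybp (gene ID 56353) spans chr6:100228565-100287358 of GRCm38.p6.

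Phc1, a polyhomeotic protein that links PRC1 particles, was at 21.31, 20.32 and 19.94 FPKM in young and at 22.98, 22.46 and 22.57 FPKM in aged libraries. The groups do not overlap, and the aged mean was 10.5% higher, a log2 change of 0.14 ± 0.050 (SE; limma adjusted p = 0.317). Without young 2, young 3 or aged 1 its unadjusted p in limma was above 0.05, up to 0.0748. Its paralog Phc2, at about 5 times the level, was at 103.64, 107.52 and 109.81 FPKM in young and at 107.37, 98.05 and 102.77 FPKM in aged libraries, a change of -0.06 ± 0.043 (SE; limma adjusted p = 0.669). Pcgf3, a variant PRC1 subunit, was at 18.83, 20.1 and 19.57 FPKM in young and at 16.41, 18.87 and 17.3 FPKM in aged libraries. Its groups touch, since aged 2 lies just above young 1, and the log2 change was -0.15 ± 0.064 (SE; limma adjusted p = 0.418). Its unadjusted p of 0.0473 in limma lay above 0.05 in 6 of 16 alternatives, 4 of which leave out 1 library (young 2, young 3, aged 1 or aged 3), and reached 0.163. Phc1 (gene ID 13619) spans chr6:122317731-122340227 and Pcgf3 (69587) chr5:108461259-108506976 of GRCm38.p6.

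Bmi1 varied little over the 6 libraries. It was at 30.44, 31.44 and 31.17 FPKM in young and at 31.55, 30.59 and 30.76 FPKM in aged libraries. The log2 change was -0.002 ± 0.043 (SE; limma adjusted p = 0.991), with an interval from -0.10 to 0.096 that lies within 1.2-fold. Bmi1 made up 43.1% ± 0.188 of the summed FPKM of the 6 PCGF genes in young and 43.8% ± 2.07 in aged libraries (SD, n = 3 each). Pcgf3 followed with 27.1% ± 0.535 and 24.7% ± 0.995. The shares of Pcgf1, Pcgf5 and Pcgf6, subunits of variant PRC1, lay between 7.88% and 11.6% in every library, and Pcgf2, the closest relative of Bmi1, held 2.26% to 3.61%. None of these 4 genes was past an unadjusted p of 0.05, and each overlapped between the ages.

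The ubiquitin ligases of PRC1, Ring1 and Rnf2, stood at near-equal levels. Ring1 had means of 14.7 ± 1.30 and 16.02 ± 1.48 FPKM and Rnf2 of 16.3 ± 0.517 and 16.5 ± 0.725 FPKM in young and aged libraries (SD, n = 3 each), with limma adjusted p of 0.659 and 0.969. Both overlapped between the ages. Of the CBX readers of methylated H3K27, Cbx6 was the most abundant, at 34.43 to 37.18 FPKM in the 6 libraries and 66.4% to 72.1% of the summed FPKM of Cbx2, Cbx6, Cbx7 and Cbx8. Cbx8 was at 6.77, 5.85 and 7.69 FPKM in young and at 8.51, 7.64 and 7.8 FPKM in aged libraries, which overlap narrowly through young 3. Its log2 change of 0.21 ± 0.099 (SE) was the highest estimate among the 38 members with all libraries and did not pass (limma adjusted p = 0.447; unadjusted p = 0.0605). It was 0.13 without young 2, under Ring1 (0.18) and Men1 (0.17), and 0.24 without aged 2, under Cbx7 (0.26). Cbx2 had means of 6.94 and 7.70 FPKM (limma adjusted p = 0.628). Cbx7, with about 29.0 estimated reads per library, varied most: 1.63, 1.69 and 1.95 FPKM in young and 1.92, 1.16 and 2.74 FPKM in aged libraries. Its lowest and its highest value both came from aged libraries.

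On the Trithorax side the estimates of the catalytic genes lay close to 0. The 6 H3K4 methyltransferase genes Kmt2a, Kmt2b, Kmt2c, Kmt2d, Setd1a and Setd1b had log2 changes from -0.025 to 0.030, and their limma adjusted p ran from 0.893 to 0.995. Kmt2a, known for its role in neurogenesis from subventricular zone stem cells, was at 9.64, 8.76 and 9.53 FPKM in young and at 9.81, 9.52 and 8.59 FPKM in aged libraries. The log2 change of Kmt2a was -0.001 ± 0.076 (SE), with an interval from -0.17 to 0.17. Per length, Setd1a (mean 16.9 FPKM) and Kmt2b (13.6 FPKM) were the highest of the 6, followed by Kmt2a (9.31 FPKM), Kmt2d (7.79 FPKM), Setd1b (6.32 FPKM) and Kmt2c (6.03 FPKM). In this order the libraries of Setd1b (5.79 to 6.8 FPKM) and Kmt2c (5.74 to 6.35 FPKM) overlapped, and those of the other neighbours did not. The summed FPKM of the 6 genes was 59.9 ± 1.91 in young and 60.05 ± 2.32 in aged libraries (SD, n = 3 each). Ash1l, which methylates H3K36 and counts as Trithorax by genetics, had means of 10.2 and 9.92 FPKM (limma adjusted p = 0.914).

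Of the subunits that these methyltransferases share or recruit, Men1 was the member past the unadjusted threshold. Menin, its product, tethers KMT2A and KMT2B to chromatin. Men1 was at 37.06, 39.55 and 37.13 FPKM in young and at 41.56, 41.42 and 42.26 FPKM in aged libraries, and every aged library lay above every young one. The aged mean was 10.1% higher, with a log2 change of 0.14 ± 0.044 (SE), an interval from 0.037 to 0.24 and a limma adjusted p of 0.265. Men1 (gene ID 17283) spans chr19:6334979-6340894 of GRCm38.p6. The core subunits common to all 6 enzymes were not past an unadjusted p of 0.05. Wdr5 had means of 25.9 and 26.6 FPKM and Rbbp5 of 13.9 and 13.7 FPKM in young and aged libraries. Ash2l was at 45.37, 43.42 and 43.69 FPKM in young and at 44.04, 36.57 and 42.5 FPKM in aged libraries, of which aged 2 stood apart from the other 5. Dpy30 was at 57.68, 48.79 and 48.79 FPKM in young and at 47.42, 49.78 and 47.12 FPKM in aged libraries, and here young 1 stood above the rest. For both genes the log2 change was close to -0.1 (limma adjusted p of 0.610 for Ash2l and 0.644 for Dpy30). Each rests on 1 library: Ash2l was at -0.029 without aged 2 and Dpy30 at -0.020 without young 1.

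Neither H3K27 demethylase differed between the ages beyond the spread of its libraries. Kdm6a, which lies on the X chromosome and is also a subunit of KMT2C and KMT2D complexes, was at 6.6, 7.26 and 7.52 FPKM in young and at 7.02, 7.35 and 6.87 FPKM in aged libraries. Kdm6b, known for switching on neurogenic genes in this niche, was at 18.23, 19.1 and 21.04 FPKM in young and at 18.65, 20.6 and 19.65 FPKM in aged libraries. The groups overlapped fully. The log2 changes were -0.01 ± 0.077 and 0.01 ± 0.067 (SE; limma adjusted p of 0.985 and 0.966), with intervals from -0.18 to 0.17 and from -0.14 to 0.17.

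Ratios of related genes within a library do not depend on how libraries were scaled to each other. Ezh2 stood at 26.4 to 33.9 times Ezh1 in the 6 libraries, and Bmi1 at 11.95 to 19.1 times Pcgf2. The mean Ezh2 to Ezh1 ratio was 29.1 in young and 29.8 in aged libraries, a difference within the spread of either group. Kdm6b stood at 2.63 to 2.86 times Kdm6a, and Setd1a at 2.57 to 2.98 times Setd1b. Of the 10 ratios compared, 2 did not overlap between the ages. The log2 ratio of Phc1 to Phc2 was -2.38 ± 0.092 in young and -2.18 ± 0.049 in aged libraries (SD, n = 3 each), so that Phc2 stood on average at 5.21 and at 4.53 times Phc1. The log2 ratio of Rbbp4 to Rbbp7 was -0.49 ± 0.027 and -0.43 ± 0.031 (SD, n = 3 each). For both the two-sided exact permutation p was 0.1, the smallest that 3 against 3 libraries can give, and 0.5 after adjustment over the 10 ratios. The other 8 ratios overlapped (exact permutation p from 0.2 to 1).

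**Figure D3:**
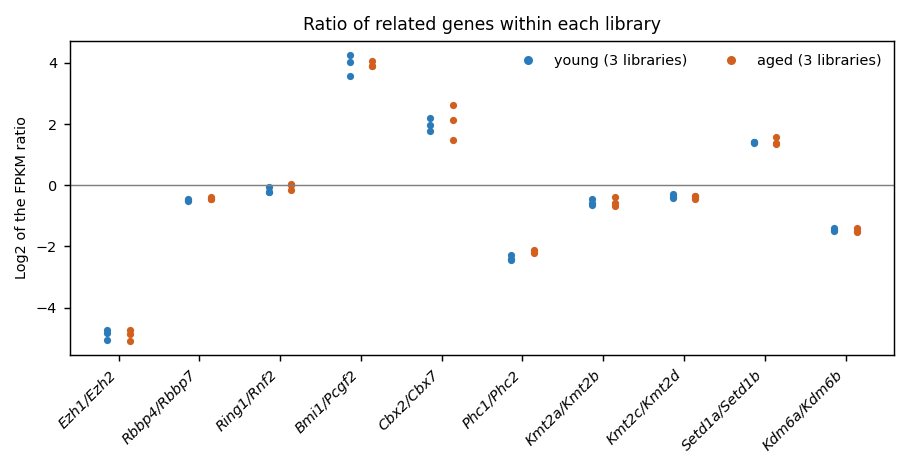
Log2 of the FPKM ratio of 10 pairs of related genes (vertical axis) in each library; blue points are young and orange points aged libraries. The Ezh1 to Ezh2 ratio is the lowest and the Bmi1 to Pcgf2 ratio the highest, and only Rbbp4/Rbbp7 and Phc1/Phc2 have groups that do not overlap.

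Other genes of these pathways were counted in the same way. Of 81 further partners and antagonists listed, 76 were tested, 0 were called by limma and 6 (7.89%, against 11.9% of all tested genes) had an unadjusted p under 0.05, of which 5 were higher and 1 was lower in aged libraries. In the list of other PRC2 and PRC1 partners (21 of 22 tested), 3 were higher at that p and 0 lower, where 6.3% of all tested genes were higher and 5.55% lower. Scmh1, a PRC1-associated protein, was at 6.99, 7.09 and 6.79 FPKM in young and at 8.41, 8.86 and 8.49 FPKM in aged libraries (log2 change 0.27; limma adjusted p = 0.151). Epop, a PRC2 partner, had means of 4.91 and 6.18 FPKM (limma adjusted p = 0.343). E2f6, a repressor that is part of a variant PRC1, had means of 22.6 and 25.2 FPKM (limma adjusted p = 0.323). The groups do not overlap for any of these 3 genes. Epop was past an unadjusted p of 0.05 in 1 of the 6 limma fits that leave out a library, the fit without young 3, and its p reached 0.0992 without young 1, while E2f6 was not past it without young 3, without aged 3 or with the block (p up to 0.0926). Of the 10 genes of KMT2 partners, 2 were higher at that p and 0 lower, to be read against the same 6.3% and 5.55%. Pagr1a, a subunit of the KMT2C and KMT2D complexes, was at 34.16, 37.65 and 37.24 FPKM in young and at 46.17, 43.9 and 42.3 FPKM in aged libraries, 21.4% higher on average (limma adjusted p = 0.0709). Cxxc1, the CpG-binding subunit of SETD1 complexes, had means of 35.02 and 38.2 FPKM (limma adjusted p = 0.277). Neither gene overlapped between the ages.

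The genes that Polycomb is known to silence were represented by the Ink4 locus and the Hox genes. Cdkn2a, which encodes the cell cycle inhibitors p16 and p19, was at 126.33, 127 and 126.23 FPKM in young and at 94.11, 104.23 and 96.74 FPKM in aged libraries. The gene was thus well expressed, not silent, in these cultures at both ages. Its mean FPKM fell by 22.3%, with a log2 change of -0.36 ± 0.042 (SE; limma adjusted p = 0.0102). That call was lost without limma's trend (adjusted p = 0.0809) and in the fit that blocked on replicate number (0.0511). The means of Bmi1 and Ezh2 differed by under 1% of the young mean, with intervals of the log2 change from -0.10 to 0.096 and from -0.15 to 0.19. A link between these genes and Cdkn2a was not tested. The neighbouring Cdkn2b, which encodes p15, was at 26.82, 26.12 and 20.9 FPKM in young and at 21.86, 20.12 and 20.93 FPKM in aged libraries, which overlap through young 3 (limma adjusted p = 0.403). The 8 Hox genes in the tables lay at 0.29 FPKM or less in every library and entered no test.

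**Figure D4:**
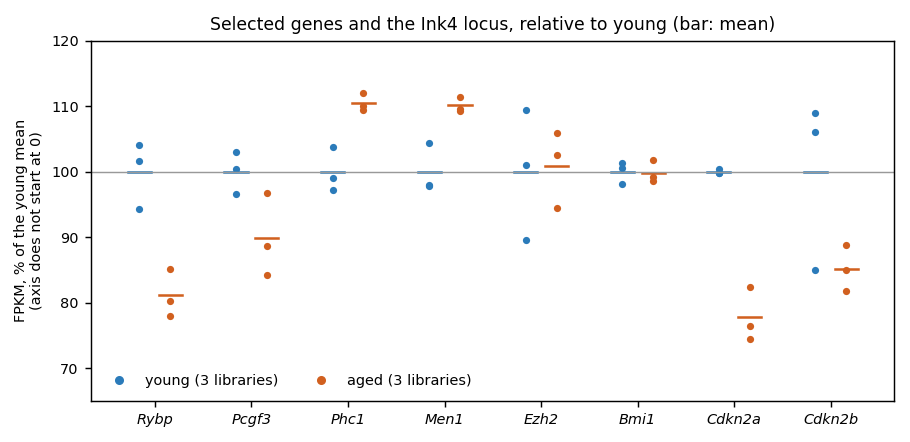
FPKM of 8 genes as a percentage of the young mean (vertical axis, which does not start at 0) in each library, with bars for the group means; blue is young and orange aged. Rybp and Cdkn2a lie lower in all 3 aged libraries, Phc1 and Men1 higher, and Ezh2 and Bmi1 overlap around the young mean.

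The libraries held about 5291005 to 5479452 counted reads, as estimated from the steps between low FPKM values (75.1% to 79.1% of which fell within 0.15 of a whole read), and the members from about 23.9 (Pcgf2) to 1959 (Phc2) of these per library, with a median of 356. For 22 of the 38 members the coefficient of variation within groups was above that of read sampling alone. Markers of neural stem cells were abundant at both ages (10 of 10 tested; summed FPKM of 5448 to 5602 for young and 5367 to 5552 for aged libraries). Of 25 proliferation genes, 0 were called, 3 were higher at an unadjusted p under 0.05 and 21 were higher in estimate (median log2 change 0.032). Of all tested genes, 6.3% were higher at that p and 51.0% higher in estimate. Their FPKM summed to 1819 to 1838 for young and 1862 to 1891 for aged libraries, and its part in the levels of the members was not tested. Summed markers of microglia (5 of 8 in the tables) came to between 3.07 and 4.23 FPKM for young and between 3.16 and 3.54 FPKM for aged libraries. Those of endothelium (6 of 7) were at 2.52 to 4.16 and 3.51 to 3.71 FPKM. Egfl7, the 1 endothelial gene tested, was higher (1.51 and 2.56 FPKM; limma unadjusted p = 0.0032, adjusted p = 0.147). Flt1, which was not tested, was lower without overlap (0.93 and 0.467 FPKM), and the remaining genes overlapped. Summed markers of fibroblasts and pericytes (7 of 8) were at 0.93 to 1.16 and 3.11 to 4.08 FPKM. In the last list the 1 tested gene, Col1a1, rose from 0.423 to 2.46 FPKM (limma adjusted p = 0.0107). Col1a2 (means of 0.013 and 0.63 FPKM in young and aged libraries) and Col3a1 (0.02 and 0.13 FPKM) were also higher. Acta2 (0.48 and 0.31 FPKM), Rgs5 (0.067 and 0 FPKM) and Dcn (0.033 and 0 FPKM) were lower, and Pdgfrb was at 0.03 FPKM or less. That sum therefore rose mostly through its collagen genes. Of 6 astrocyte markers, Gfap and Slc1a2 were higher and Aldh1l1 and Gja1 lower at an unadjusted p under 0.05 in limma, and their sum (411 to 413 FPKM for young, 389 to 395 FPKM for aged) consists mostly of Aldh1l1. Of 5 oligodendrocyte-lineage markers tested, 2 were higher at that p and 1 lower (sums of 26.8 to 28.1 and 31.0 to 32.4 FPKM). Of 3 neuroblast and neuron markers tested, Tubb3 was higher (9.37 and 12.1 FPKM) and Elavl4 lower (4.21 and 2.75 FPKM) at that p, with sums of 143 to 147 and 137 to 144 FPKM. Of 2 ependymal and choroid plexus markers tested, Enpp2 was higher at that p (11.6 and 15.1 FPKM), with sums of 21.4 to 26.2 and 24.2 to 29.3 FPKM. None of the markers in these 4 lists was called. No listed marker found in the tables was at 0 in all libraries. Whether genes at 0 throughout were left out before deposit is not stated, so this does not show a trace of each cell type. The part of these cell types in the levels of the members was not tested. A change in the share of cells and a change of RNA per cell cannot be told apart in bulk libraries.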

How the data were processed

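The deposited tables hold 1 FPKM value per gene with 2 decimals for each of 6 libraries (3 young, 3 aged), per the file headers. The submitters' processing notes name TopHat, Cuffdiff and mm10; annotation, strand setting and the scaling between libraries are not given in the sources used here. Without strand, reads of an overlapping antisense gene cannot be told apart, and paralogs or pseudogenes (Rbbp4 and Rbbp7 among them) could share reads. Groups came from the sample titles.

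FPKM are not counts, so no count test was run. Limma 3.58.1 in R 4.3.3 (lmFit, eBayes with trend, no covariate) was fitted to log2(FPKM + 1) of 11912 genes whose mean reached 1 FPKM. Its two-sided p-values were adjusted over all of these by Benjamini-Hochberg, with a threshold of 0.05. That scale understates changes of low genes. The script was tested on simulated data. Ratios were compared by exact permutation tests over the 6 libraries. The members and lists were chosen with earlier results of these data known. Values in every library are given for members with an unadjusted p under 0.05 or groups that do not overlap, for Ezh1, Ezh2, Bmi1, Kmt2a, Kdm6a and Kdm6b by rule, and for Eed, Suz12, Phc2, Cbx7, Cbx8, Ash2l and Dpy30 chosen after their values were seen. Of pathway lists, called genes and up to 3 with the smallest p under 0.05 are named, and Yaf2 is given as the paralog of Rybp.

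Estimated reads multiply FPKM by the mean length of the gene's GENCODE M21 transcripts matched by RefSeq accession and are approximate. Coordinates and promoters are those of RefSeq, GRCm38.p6. Python 3.11.15, pandas 2.3.3, numpy 2.4.6, scipy 1.17.1 and matplotlib 3.10.9 were used. Alternatives covered the pseudocount, the filter, 3 scalings, 2 eBayes options, a replicate block and leaving out each library.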

Additional observations from a re-analysis of the deposited data

How the results depend on the processing

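No member was called by limma under any of the 16 alternatives, and the smallest adjusted p of a member over all of them was 0.163. At an unadjusted p under 0.05 there were 2 to 4 members, with 2 without young 2 or aged 1. The count over all genes, 86, was 11 without limma's trend (10 of them among the 86), 22 with the replicate number as a block (21 among the 86) and 39 to 70 without each library in turn. The replicate block left 0 members called. Same-numbered libraries did not deviate together (r of 0.00795, -0.0719 and 0.108 across genes), and r for different numbers ran from -0.109 to 0.111. With 3 libraries per age this shows no sign of a pairing by number but cannot exclude one. The cause of these differences was not tested.

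Directions near 0 are not determined: of 605 fits of members, 46 had the opposite sign, over 19 members whose log2 change was at most 0.076 in size, and the other 19 kept their direction. After rescaling to TPM, Rnf2 was at -0.0020 and Kmt2d at -0.0010. After scaling to equal medians, Bmi1 was at 0.0065, Kmt2a at 0.0069, Setd1b at 0.0026 and Kdm6a at 0.00085. Without each library in turn, the log2 changes ran as follows: Ezh1 -0.075 to 0.044, Ezh2 -0.059 to 0.082, Jarid2 -0.010 to 0.051, Mtf2 -0.060 to 0.117, Rnf2 -0.016 to 0.044, Bmi1 -0.015 to 0.0073, Pcgf1 -0.109 to 0.074, Pcgf2 -0.107 to 0.126, Pcgf6 -0.015 to 0.175. For the other such genes they were Cbx7 -0.133 to 0.263, Kmt2a -0.040 to 0.050, Kmt2b -0.056 to 0.014, Kmt2c -0.040 to 0.018, Kmt2d -0.048 to 0.055, Setd1b -0.053 to 0.047, Rbbp5 -0.136 to 0.052, Ash1l -0.098 to 0.010, Kdm6a -0.055 to 0.028, Kdm6b -0.030 to 0.069. Among members that kept their direction, leaving out 1 library also moved Eed (-0.16 without young 3), Suz12 (0.15 without aged 1, 0.031 without aged 2), Ring1 (0.052 without aged 3, 0.068 without young 3, 0.18 without young 2), Pcgf5 (0.066 without aged 2, 0.19 without aged 1) and Cbx2 (0.077 without aged 1) by over 1.5 times. So did Rbbp4 (0.014 without aged 3), Rbbp7 (-0.0033 without aged 2, -0.050 without aged 3), Cbx6 (0.0075 without young 1) and Phc2 (-0.026 without aged 2). The genes and fits named are not a full list. Low read numbers limit 5 members with under 60 estimated reads per library.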

Other observations

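The BAF complex, the ATP-driven remodeller that belongs to the Trithorax group and opposes Polycomb, held no called gene either. Of 26 genes listed, 25 were tested and 0 were called by limma, where 0.722% of all tested genes were called. An unadjusted p under 0.05 was reached by 1 gene, against 11.9% of all tested genes. The median log2 change was 0.003, and FPKM summed to 842.1 to 864.1 for young and 846.04 to 868.5 for aged libraries. The gene at that p was Dpf3, which encodes a histone reader. It was at 12.54, 13.79 and 13.07 FPKM in young and at 10.39, 12.86 and 10.19 FPKM in aged libraries. Its groups overlap through aged 2 (limma adjusted p = 0.382).

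The Polycomb deubiquitinase and the DNA-binding Polycomb partners (10 of 12 tested, among them Bap1 and Yy1) had a median log2 change of -0.003. Past an unadjusted p of 0.05 by limma were 0 of them, against 11.9% of all tested genes. The same held for the 5 H3K4 demethylases tested, which remove the mark that KMT2 enzymes write (median -0.020), and for the 5 genes of H3K36 methylation, a mark that PRC2 cannot easily work beside (median -0.056). In the last list 4 of the 5 genes were lower in estimate, and the groups overlapped for each of the 5.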
